A study of Mus musculus with 2 samples.

Results

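Pclaf, the gene for the PCNA-associated factor, is described here across the cycling and non-cycling cells of every lineage in 2 single-cell RNA libraries of mouse lung. It is 1 row of 31053 genes in both matrices. Its readout was followed in 394 cycling cells with a lineage call among 30187 kept cells of the library labelled WT, and in 180 among 15637 kept cells of the library labelled KO, where kept cells passed the limits on detected genes and mitochondrial transcripts. A cell was called cycling when at least 1 transcript of 3 or more of Mki67, Top2a, Birc5, Cenpf and Ube2c was counted in it. It was called immune with Ptprc, endothelial with Cdh5, mesenchymal with Col1a2, and epithelial with Epcam or with Sftpc at 2% or more of its transcripts. A cell positive for more than 1 of these was called mixed, and a cell with none was left unassigned.

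The study compared lungs of Pclaf WT and Pclaf KO mice, both aged 8 to 10 weeks and both given bleomycin, an agent that injures the alveolar epithelium, 1 week before collection. The design text gives its dose as 1.35 U/kg, and the methods state another dose. Each genotype is 1 library made with a droplet kit that reads the 3′ end of transcripts, from cells sorted for EpCAM and against the endothelial antigen CD31 and the leukocyte antigen CD45. The number of animals in each library is not given in the sources used here, nor is the part of Pclaf that the mutant allele lacks. With 1 library per genotype no difference can be tested, and every interval below is a 95% interval that covers counting error only.

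PCLAF binds PCNA, the ring that holds DNA polymerases on their template, and takes part in DNA replication and repair. Its gene belongs to the genes that E2F factors and the DREAM complex keep silent in resting cells and release when cells enter the cycle. S phase is the phase of DNA synthesis, and G2/M covers the gap after it and mitosis itself. Mki67, Top2a, Birc5, Cenpf and Ube2c, whose transcripts are highest late in the cycle, mark cycling cells without use of Pclaf itself.

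The start of Pclaf carries letters that E2F factors and the CCAAT-binding factor NF-Y are known to read, and they are shown because the levels below follow the cycle. In the RefSeq window of 300 bases around the start site (GRCm38.p6, chr9:65890073-65890372, plus strand), each of the 3 stretches below is written 5′ to 3′ with the searched letters in capitals.
CCAAT letters on both strands, chr9:65890257-65890286: ATTGGtccagagtgaaggcgcggaaCCAAT
first E2F letters, chr9:65890312-65890331: gagcgcGCGGGAAagagacc
second E2F letters, chr9:65890339-65890358: acggtgGCGGGAAcatcatt
Both strands were searched for GCGGGAA (E2F), CCAAT and TTTGAA (the CHR element of late cell cycle genes), and the motifs do not overlap one another in this window. GCGGGAA stood in 4.60% of 32851 RefSeq windows of this length, in 14 of 34 windows of genes in a list of S phase genes, and in 1 of 47 windows of a list of G2/M genes. CCAAT stood in 37.4% of all windows, in 23 of the 34 and in 35 of the 47. TTTGAA stood in 17.9% of all windows, in 6 of the 34 and in 30 of the 47, and was not found in the window of Pclaf. A match of letters is a description of the window and not a bound site.

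In the GENCODE annotation of the same build, Pclaf spans 65890237 to 65903266 of chromosome 9 in 4 exons. The last exon, 1709 bases long, holds only 43 coding bases and then the stop codon and the 3′ untranslated region. Reads of a 3′ kit fall mostly at that end, so these counts do not check a deletion elsewhere in the gene. Trip4, a transcriptional coactivator gene on the opposite strand, encloses Pclaf, and strand use in the counting is not given in the sources used here. The 3′ ends of Trip4 and Pclaf lie 74336 bases apart.

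The libraries differed in depth and in makeup. The library labelled WT held 30669 barcodes and 98171818 transcripts (unique molecular identifiers, UMIs), with 706 cycling cells among those kept, or 2.34%. The library labelled KO held 17172 barcodes and 111267567 UMIs, with 220 cycling cells, or 1.41%. Of the WT cycling cells, 277 were immune, 82 endothelial, 19 mesenchymal, 16 epithelial, 243 mixed and 69 unassigned, although the cells were sorted as epithelial. Of the KO cycling cells, 155 were epithelial, 11 immune, 10 mesenchymal, 4 endothelial, 27 mixed and 13 unassigned. The methods name male mice for the animal experiments. Xist, a transcript of female cells, nevertheless stood at 254 CPM (UMIs per 1000000 UMIs) in the WT and 498 CPM in the KO library, and the Y-linked gene Ddx3y at 74.0 and 24.0 CPM. The 2 libraries shared 163 barcodes, of which 4 were cycling cells in the WT and 2 in the KO library, with 17 and 0 Pclaf UMIs among the shared cells that were kept.

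In the library labelled WT, the Pclaf level was higher in cycling than in non-cycling cells of all 4 lineages. The kept cells held 3763 Pclaf UMIs in 1261 cells, and 69.9% of these UMIs lay in the 706 cycling cells. Of the 1261 cells, 504 were cycling. Endothelial, mesenchymal and epithelial cells held more Pclaf UMIs outside the cycling call (167, 68 and 36) than within it (120, 56 and 19). Cycling immune cells held 577 CPM (547 to 608; 1402 UMIs) against 12.5 CPM (11.2 to 13.9) in non-cycling immune cells. Cycling mesenchymal cells held 322 CPM (243 to 418; 56 UMIs), cycling endothelial cells 295 CPM (245 to 353; 120 UMIs) and cycling epithelial cells 184 CPM (111 to 288; 19 UMIs). The non-cycling cells of these 3 lineages held 8.98, 9.71 and 7.64 CPM. The cycling level thus stood 46.3-fold, 35.8-fold, 30.4-fold and 24.1-fold above the non-cycling level, in the order just given, and no interval of cycling cells met that of non-cycling cells.

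The immune cells stood highest among cycling WT cells. On the log2 scale they exceeded the next lineage, mesenchymal, by 0.84 (0.46 to 1.25) and the epithelial cells by 1.65 (1.00 to 2.38). Mesenchymal and endothelial cells could not be ordered, with a difference of 0.12 (-0.36 to 0.59), and neither could endothelial and epithelial cells, with 0.68 (-0.03 to 1.46). Within the immune gate, 188 cycling cells with macrophage markers held 611 CPM, 42 with T cell markers 553 CPM, 12 with B cell markers 389 CPM and 6 with neutrophil markers 160 CPM (69.0 to 315). The macrophage cells thus supplied 1080 of the 1402 UMIs of the immune gate.

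The WT epithelial value needs its markers beside it. Of the 16 cycling cells in the WT epithelial gate, 4 held at least as many UMIs of the immune as of the epithelial marker list (231 against 10 in all), and these 4 cells held 7 of the 19 Pclaf UMIs. The 12 other cells held 410 epithelial and 8 immune list UMIs, and Pclaf stood in them at 154 CPM (79.7 to 270). All 155 cycling cells of the KO epithelial gate held more epithelial than immune list UMIs, 4503 against 16 in sum. The WT cycling epithelial level therefore rests on 12 Pclaf UMIs from 4 cells once cells with immune markers are set aside.

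**Figure D1:**
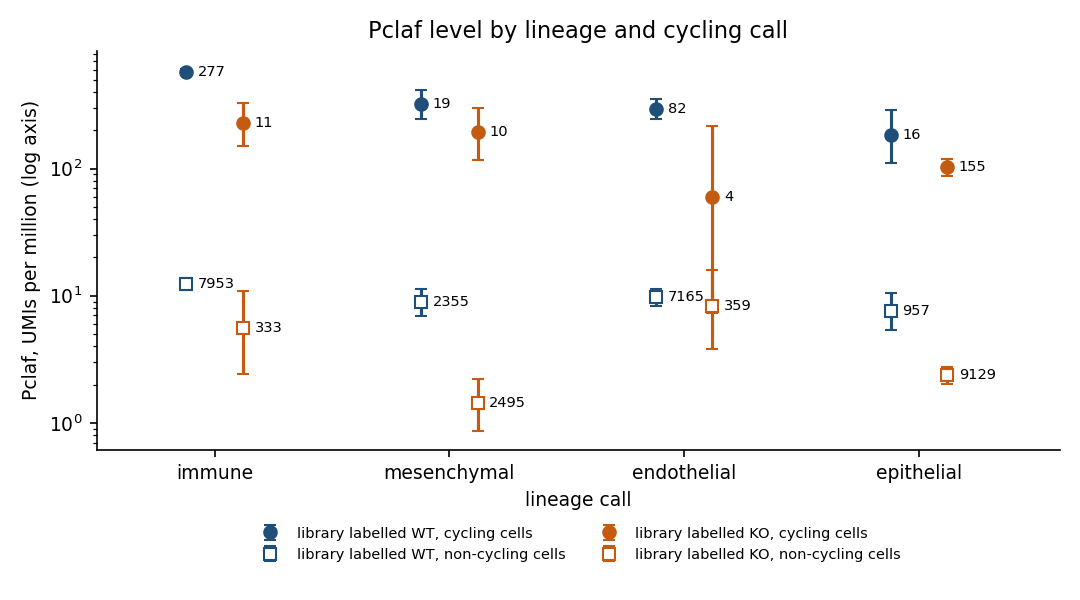
Pclaf level in UMIs per 1000000 (log axis) by lineage call, for cycling cells (filled circles) and non-cycling cells (open squares) of the libraries labelled WT (blue) and KO (orange). Bars are 95% Poisson intervals and the number beside each point is the number of cells; cycling cells stand above non-cycling cells of the same library in each lineage, with overlapping intervals only for the 4 cycling endothelial cells of the library labelled KO.

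The part of Pclaf that the mutant allele lacks is not given, so the counts here do not check the KO label. WT and KO library here mean the libraries so labelled. Pclaf transcripts were also counted in the KO library. There too the level was highest in cycling cells. The kept cells held 529 Pclaf UMIs in 254 cells, 1.62% of all kept cells against 4.18% in the WT library. These 2 shares are pooled over libraries of unlike makeup. Of these UMIs 53.7% lay in the 220 cycling cells. Cycling epithelial cells held 102 CPM (87.8 to 119; 174 UMIs), against 2.37 CPM (2.02 to 2.76) in non-cycling epithelial cells, a 43.2-fold difference. Cycling immune cells held 226 CPM (149 to 329; 27 UMIs), cycling mesenchymal cells 192 CPM (117 to 297; 20 UMIs) and cycling endothelial cells 59.98 CPM (7.26 to 217; 2 UMIs in 1 of 4 cells). The non-cycling cells of these 3 lineages held 5.57, 1.42 and 8.33 CPM. In log2 units the cycling level exceeded the non-cycling level by 5.34 (4.17 to 6.69) in immune, 7.08 (6.10 to 8.07) in mesenchymal and 2.85 (-0.40 to 5.12) in endothelial cells, the last with an interval that includes 0.

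In the order of the KO levels, mesenchymal cells exceeded epithelial cells by 0.91 (0.16 to 1.58) on the log2 scale. Of the 10 mesenchymal cells, 3 with at least as many S as G2/M list UMIs held 12 of the 20 Pclaf UMIs, 8 of them in 1 cell. Per 100 UMIs of the S list the 2 lineages were close, at 5.59 (3.41 to 8.63) in mesenchymal and 4.65 (3.99 to 5.40) in epithelial cells. Immune and mesenchymal cells, with 0.23 (-0.65 to 1.15), and epithelial and endothelial cells, with 0.77 (-1.10 to 3.83), could not be ordered. The KO immune level came from few cells: 6 of 11 held a Pclaf UMI, and 1 cell with T cell markers held 11 of the 27 UMIs. The 7 KO cycling cells with macrophage markers held 4 Pclaf UMIs, or 44.1 CPM (12.02 to 113).

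Few genes separated cycling from non-cycling cells as far as Pclaf did. Of all genes with at least 10 UMIs over both sides, the share at least 2-fold higher in cycling cells was 8.22% in immune, 13.7% in endothelial, 14.1% in mesenchymal and 19.3% in epithelial cells of the WT library. In the KO library it was 15.8%, 18.2%, 28.5% and 11.8% in the same order. Pclaf was past 2-fold in all 8 comparisons, at the 98.2nd percentile of the difference in KO endothelial cells and between the 99.0th and the 99.7th in the other 7. In WT immune cells it exceeded all 43 genes of the S list, the nearest being Rrm2, a subunit of the enzyme that makes deoxynucleotides, at 5.38 against 5.53 for Pclaf on the log2 scale. There 10 of 49 G2/M genes stood above it. In KO epithelial cells 2 of 43 S genes and 27 of 49 G2/M genes stood above it. The cycling call itself uses genes of G2/M, so a place beside G2/M genes is partly set by the call.

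The share of cells with a Pclaf UMI gave the same contrast. It was 81.6% (76.5 to 86.0) in WT cycling immune cells and 2.40% (2.08 to 2.76) in non-cycling ones, at median depths of 8382 and 2541 UMIs. In KO epithelial cells it was 40% (32.2 to 48.2) and 1.15% (0.94 to 1.39), at 10328 and 6907 UMIs. After each cell was thinned to 1000 UMIs, which left out 2 cycling and 386 non-cycling WT immune cells and 0 and 137 KO epithelial cells, the shares were 37.8% and 0.95% in the WT immune cells and 9.03% and 0.24% in the KO epithelial cells. Cells in which none of the 5 cycling genes was counted, the nearest thing here to cells that should lack the transcript, held a Pclaf UMI in 1.48% of WT and 0.55% of KO cells. The share in cycling cells of both libraries stood above that of cells with none of the 5 genes.

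Pclaf followed the number of cycling genes counted in a cell. In the WT library the level was 5.79 CPM with 0 of the 5 genes, 42.9 with 1, 153 with 2, 368 with 3, 482 with 4 and 495 CPM with all 5. In the KO library it was 1.06, 9.86, 54.2, 54.7, 100.03 and 194 CPM. Pooled over lineages, whose makeup differs between the libraries, the KO level was lower at every number of genes. Within lineages this did not hold throughout: with all 5 genes, epithelial cells stood at 155 CPM (124 to 190) in the KO and 27.8 CPM (0.70 to 155) in the WT library, the latter from 1 UMI in 5 cells. Immune cells with 1 gene stood at 35.8 CPM (11.6 to 83.5) in the KO library, from 5 UMIs in 1 of 18 cells. In the WT library they stood at 35.9 CPM (29.3 to 43.5), so the libraries could not be ordered there. Cells with none of the 5 genes still made up 31.9% of the Pclaf-positive cells in either library, 402 of 27174 such cells in the WT and 81 of 14602 in the KO library.

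**Figure D2:**
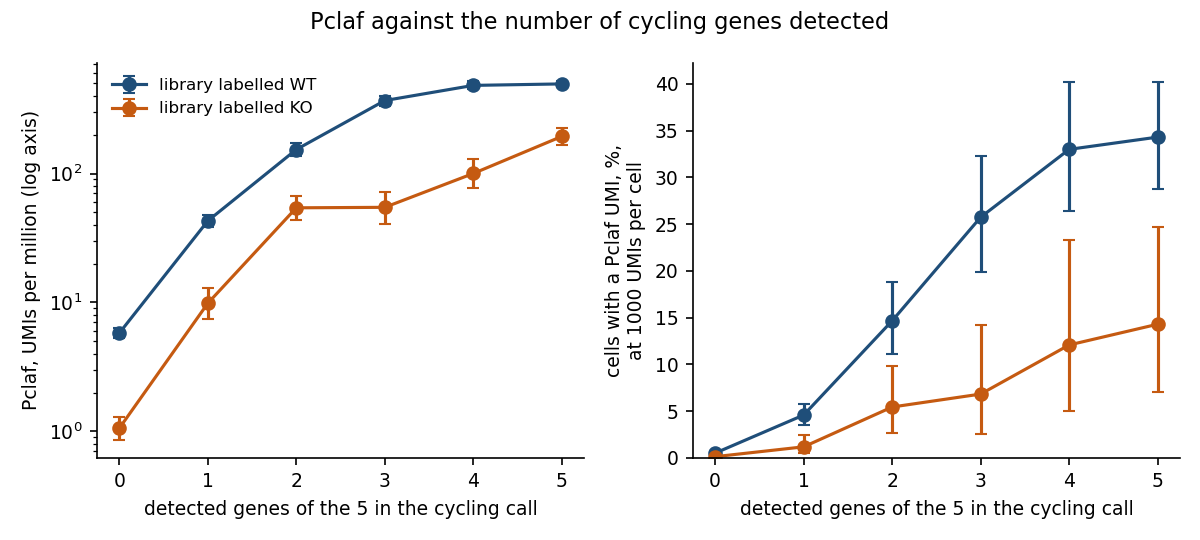
Pclaf against the number of the 5 cycling genes with a UMI in a cell, as UMIs per 1000000 on a log axis (left) and as the percent of cells with a Pclaf UMI after thinning to 1000 UMIs per cell (right), for the libraries labelled WT (blue) and KO (orange). Bars are 95% Poisson (left) and exact binomial (right) intervals; the level runs from 5.79 to 495 in the WT and from 1.06 to 194 in the KO library.

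Cells outside the cycling call but rich in S phase transcripts held Pclaf too. Among non-cycling cells with at least 5 UMIs of the S list, those with 40 or more S list UMIs per 10000 held 310 CPM (274 to 350) in 204 WT cells. Those with fewer than 10 per 10000 held 4.59 CPM (3.45 to 5.995) in 1161 cells. The KO library gave 172 CPM (136 to 215) in 57 cells and 1.51 CPM (1.02 to 2.14) in 1755 cells. In both libraries the non-cycling cells richest in S transcripts stood above those poorest in them.

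Within cycling cells, Pclaf was placed between S and G2/M genes by the S share of a cell, the S list UMIs divided by the UMIs of the S and G2/M lists together. The share was 0.75 or more in 1 WT and 0 KO cells, so the planned contrast of the extreme ranges could not be made, and cells at 0.5 or more were compared with the rest. In the WT library Pclaf stood at 341 CPM (321 to 362; 402 cells) below an S share of 0.25, at 636 CPM (602 to 672; 234 cells) from 0.25 to 0.5 and at 525 CPM (465 to 590; 60 cells) at 0.5 or more. In the KO library it stood at 67.3 CPM (54.6 to 82.1; 135 cells), 173 CPM (144 to 207; 62 cells) and 238 CPM (184 to 302; 23 cells). Pooled over lineages, the lowest level in both libraries was thus that of the cells with the lowest S share. Mesenchymal cells did not show this order. They held 323 CPM under 0.25 and 324 CPM from 0.25 to 0.5 in the WT library, in 13 and 5 cells. In the KO library they held 144, 53.5 and 327 CPM in the 3 ranges, in 5, 2 and 3 cells.

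The contrast of S share was larger in the KO than in the WT values. Cells at 0.5 or more exceeded the rest by 1.22 (0.80 to 1.62) on the log2 scale in the KO and by 0.20 (0.02 to 0.38) in the WT library, and the genotype and the lineages present cannot be told apart in it. With cycling called at 2 or more of the 5 genes, the WT difference was -0.085. KO epithelial cells alone gave 1.63 (1.13 to 2.12), from 17 and 138 cells. WT immune cells alone gave 0.02 (-0.26 to 0.28), and WT endothelial cells 1.08 (0.13 to 1.92) with only 5 cells in the upper range. Between the 2 upper ranges, the level at 0.5 or more minus that from 0.25 to 0.5 was -0.28 (-0.47 to -0.09) in the WT and 0.45 (-0.0012 to 0.90) in the KO library. It was -0.38 (-0.66 to -0.10) in WT immune and 0.73 (0.18 to 1.28) in KO epithelial cells. The share of cells with a UMI at 1000 UMIs per cell, from 0.25 to 0.5 and at 0.5 or more, was 40.5% and 43.9% in the WT and 21.3% and 8.70% in the KO library, opposite to the CPM, and no order is read from these shares. Of the WT cycling cells 134, and of the KO cells 37, lay within 0.05 of an S share of 0.25.

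**Figure D3:**
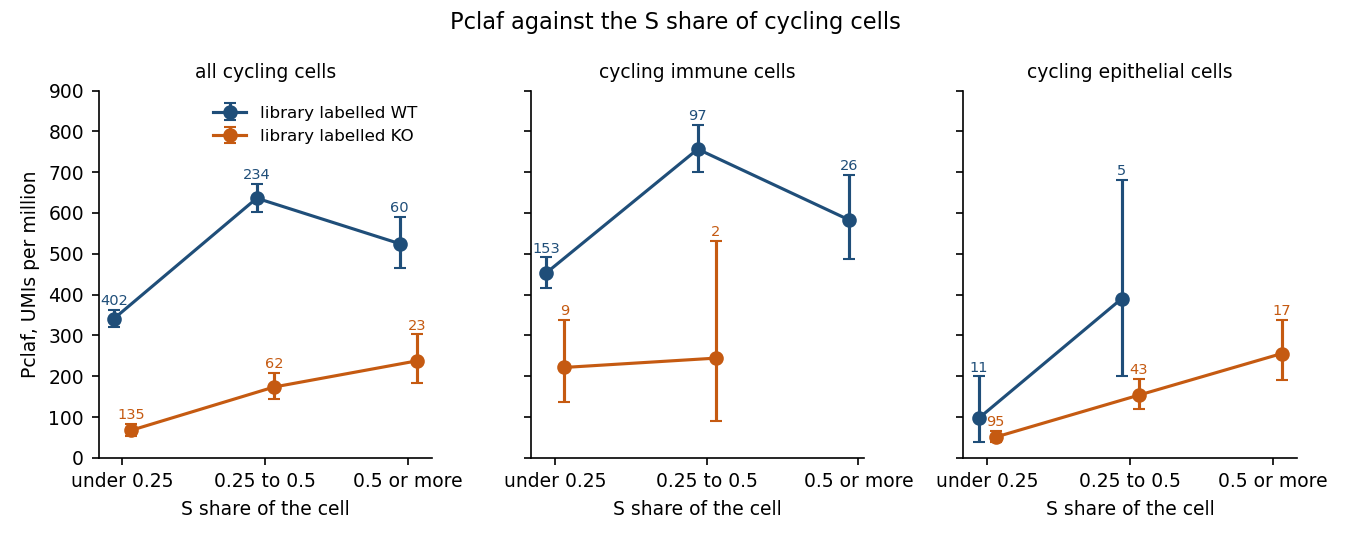
Pclaf in UMIs per 1000000 by range of the S share, for all cycling cells (left), cycling immune cells (centre) and cycling epithelial cells (right) of the libraries labelled WT (blue) and KO (orange), with 95% Poisson intervals and the number of cells above each point. The level below 0.25 is the lowest in each series of points, and the KO immune cells, 9 and 2 in number, have intervals that overlap.

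Single genes were ranked by how they varied with Pclaf across cycling cells. Over 626 WT cycling cells thinned to 2000 UMIs, 6043 genes were seen in at least 5% of cells, and Pclaf in 50.5%. Correlations were weak, with a median Pearson r of -0.0022 over these genes, and the cells share 1 library and a fixed depth, so the values are a description, and a weak r in sparse counts is no finding. The highest r belonged to the replication-dependent histone genes Hist1h2ae, at 0.31, and Hist1h2ap, at 0.27, then to the histone variant gene H2afz, at 0.27. Dctpp1, which clears modified nucleotides, had 0.25, the tubulin gene Tubb5 0.24, the ubiquitin gene Ubb 0.24 and the mitotic kinesin gene Kif15 0.23. Ptma, Dek and the linker histone gene Hist1h1b followed at 0.23, 0.22 and 0.22. Histone genes of one cluster have near-identical copies, so that the reads of single members are uncertain.

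Over 209 KO cycling cells the same genes had r of 0.32 for Hist1h2ae, 0.39 for Hist1h2ap, 0.05 for H2afz and 0.29 for Dctpp1. Tubb5 had 0.28, Ubb 0.14, Kif15 0.25, Ptma 0.21, Dek 0.16 and Hist1h1b 0.22. Hist1h2ap was the highest of 5491 genes there and H2afz the 1468th, and 2 of the 10 WT genes were among the 10 highest in the KO library. Pclaf was seen in only 16.7% of the thinned KO cells.

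Of the 4 gene lists, the S list had the highest median r with Pclaf. Their median r was 0.11 in the WT (32 of 34 measured genes above 0) and 0.16 in the KO library (29 of 30), against 0.02 (30 of 46) and 0.04 (32 of 46) for G2/M genes. In the WT library the highest S genes were Pcna at 0.20, the chromatin ATPase gene Atad2 at 0.19 and Clspn, a replication checkpoint mediator, at 0.18. The lowest S genes were Pold3 at 0.03, Usp1 at -0.01 and Ubr7 at -0.02. Among G2/M genes the highest were Smc4 (condensin) at 0.13, Nusap1 (spindle) at 0.11 and Kif11 (spindle motor) at 0.10, and the lowest were Cenpa (centromeric histone) at -0.07, Cdc20 (activator of mitotic exit) at -0.07 and Ckap2 at -0.08.

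Genes of the partners of PCNA and genes of the DREAM complex had medians between those of the S and G2/M lists. The PCNA partner list shares genes with the S list, Pcna, Pold3 and Usp1 among them, so its median is not separate from it. Genes of proteins that bind or load PCNA had a median r of 0.09 in the WT and 0.15 in the KO library, over 17 and 15 genes. After Pcna the highest were the maintenance DNA methyltransferase gene Dnmt1 at 0.14 and the ubiquitin ligase gene Rad18 at 0.11, and the lowest were Pold1 at 0.03 and, already given, Pold3 and Usp1. DREAM genes had a median of 0.06 and 0.09, over 11 and 8 genes. There Rbbp4 at 0.13, Tfdp1 at 0.11 and Rbl1 at 0.11 were highest, and Tfdp2 at -0.0013, Lin54 at -0.02 and Rbl2, a pocket protein of resting cells, at -0.03 were lowest.

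**Figure D4:**
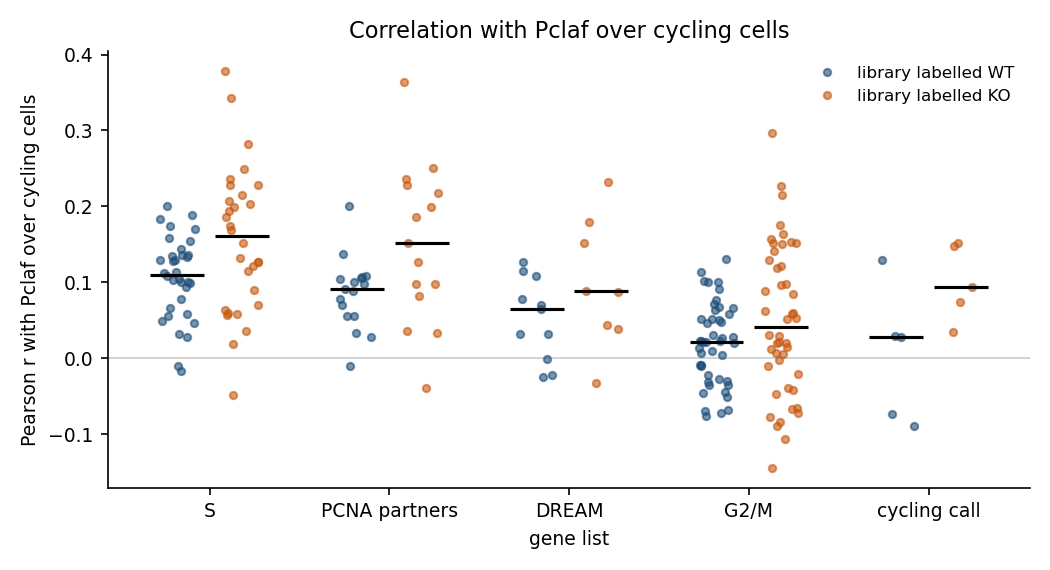
Pearson r of single genes with Pclaf over cycling cells thinned to 2000 UMIs, by gene list, for the libraries labelled WT (blue, 626 cells) and KO (orange, 209 cells), with a black line at each median. The median of the S list, 0.11 and 0.16, stands above that of the G2/M list, 0.02 and 0.04.

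What remained of Pclaf in the KO library was compared with the WT library lineage by lineage. The log2 difference of the level in cycling cells, KO minus WT, was -1.35 (-1.96 to -0.80) in immune cells, -2.30 (-5.36 to -0.41) in endothelial cells, -0.74 (-1.56 to 0.02) in mesenchymal cells and -0.85 (-1.53 to -0.08) in epithelial cells. The mesenchymal interval includes 0. Without the upper limit on detected genes, where the barcodes added held 28.0% of KO and 6.20% of WT Pclaf UMIs, the mesenchymal difference was 0.01 (-0.53 to 0.55) and the epithelial difference -0.55 (-1.19 to 0.17), so that both intervals include 0. After every barcode was thinned to 1000 UMIs, with cycling and lineage calls remade at that depth, the immune difference was 0.087 (-5.27 to 2.70), which shows no direction. The immune value mixes unlike cells: those with macrophage markers stood at 611 CPM in the WT and 44.1 CPM in the KO library, while the 4 KO cells with T cell markers or no gate held 23 of the 27 UMIs, at 945 and 702 CPM. Without the 4 WT epithelial cells that held immune markers, a choice made after seeing the data, the epithelial difference was -0.59 (-1.43 to 0.39), an interval that also includes 0. With lineages called by marker lists it was -0.18 (-0.97 to 0.72). With 4 or more cycling genes it was -0.42 (-1.30 to 0.62), and with 1 Sftpc UMI enough for the epithelial call -1.97 (-2.37 to -1.55). The epithelial difference was below 0 under each of these choices, and its size depended on which WT cells were counted.

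The pooled difference over all cycling cells, -1.97 (-2.15 to -1.80), was larger in size than that in 3 of the 4 lineages. The libraries held different cells: 39.2% of WT cycling cells but 5.0% of KO cycling cells were immune, and 2.27% against 70.5% were epithelial. Pclaf was highest in cycling immune cells of the WT library, and in the pooled value the genotype label and this makeup cannot be told apart. In non-cycling cells the difference was -1.16 (-2.38 to -0.17) in immune, -0.22 (-1.38 to 0.74) in endothelial, -2.66 (-3.48 to -1.91) in mesenchymal and -1.69 (-2.22 to -1.13) in epithelial cells.

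Background for these values came from all genes. Of genes with at least 10 UMIs, 16.4% were at least 2-fold lower in the KO library in cycling immune cells, 23.8% in endothelial, 11.4% in mesenchymal and 12.6% in epithelial cells. Pclaf was past 2-fold lower in immune and endothelial cells and short of it in mesenchymal and epithelial cells, at percentiles of 10.5, 3.23, 17.4 and 16.8 in the order given. Many genes thus had a measured difference as low as that of Pclaf in each lineage. The limit of 10 UMIs counts both libraries together, and their cycling immune, endothelial and epithelial cells differed widely in number. A gene with few UMIs can therefore pass 2-fold by counting error alone. How many genes were lower beyond counting error was not tested, so these shares and percentiles cannot tell whether the Pclaf difference was common among genes.

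Beside genes of its own phase, Pclaf was low in the KO epithelial cells under the calls used here. There 31 of 42 measured S genes were higher and 11 lower in the KO library, with a median difference of 0.66 on the log2 scale (0.50 with genes at 0 in 1 library set at the floor of 3 counts) and 0.08 over all genes. Of these, 1 gene had a lower difference than Pclaf, the exonuclease gene Exo1 at -1.58 from 11 and 2 UMIs. The WT side rests on few counts: 16 cells held 170 S list UMIs, with no S gene above 13. The 4 WT cells with immune markers held 7 of the 19 Pclaf UMIs, and the difference per S list UMI without them is given below. Pcna stood at 124 CPM in the KO and 77.6 CPM in the WT library, a difference of 0.67 (-0.33 to 1.90) from 210 and 8 UMIs. In immune cells the S genes were themselves lower, with 37 of 42 below 0 and a median of -0.91 (-0.68 with the floor), and 10 of the 42 had a lower difference than Pclaf. Several of these 10 had no KO UMI and were set at 0.5 counts, so their place below Pclaf depends on that setting. The median over all genes in immune cells was -0.08.

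The partner and regulator lists gave further background. In cycling epithelial cells 19 of 23 genes that bind or load PCNA were higher in the KO library, each from 12 or fewer WT UMIs, and 8 of 14 DREAM genes were lower. In cycling immune cells 17 of 23 PCNA partner genes and 9 of 14 DREAM genes were lower. The median difference over all genes was 0.08 in epithelial and -0.08 in immune cells. The DREAM counts are close to an even split, and nothing is read from them. The PCNA partner list shares genes with the S list, Pcna and Fen1 among them, so it is not separate from it. G2/M genes had medians of -0.02 in epithelial and 0.18 in immune cells, with 4 and 2 of 49 genes below Pclaf.

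**Figure D5:**
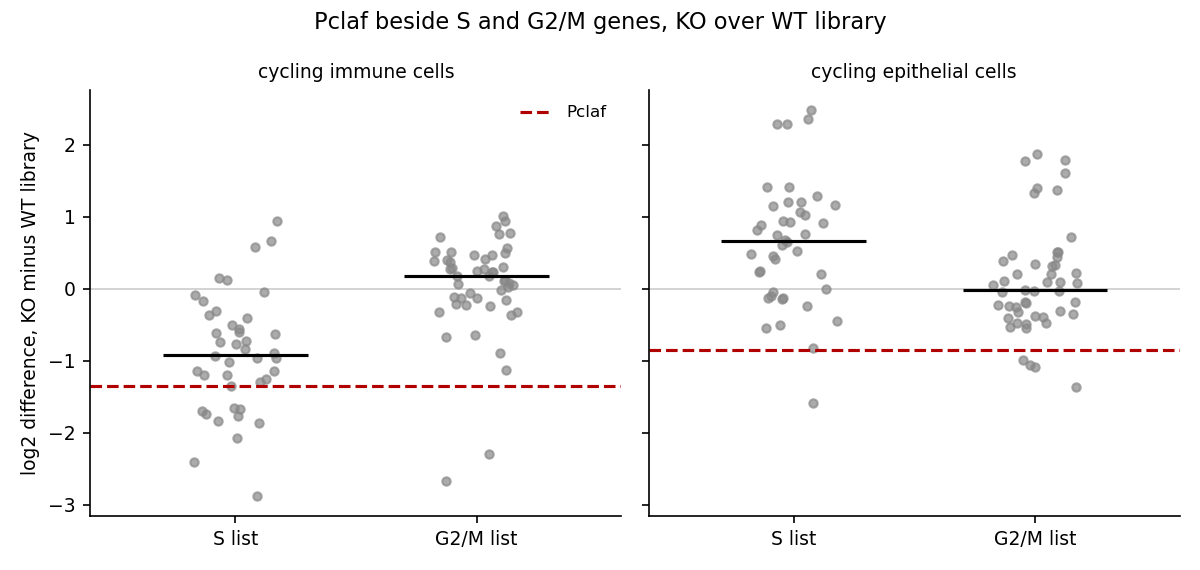
Log2 difference between the libraries, KO minus WT, for single genes of the S and G2/M lists (grey points, black line at the median) in cycling immune (left) and cycling epithelial cells (right), with Pclaf as a dashed red line at -1.35 and -0.85. A gene with no UMI in 1 library is drawn with 0.5 counts there; in the epithelial cells 41 of 42 S genes lie above Pclaf, and in the immune cells 32 of 42.

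Counted per 100 UMIs of the S list, the KO level was lower in each lineage under the calls used here. In immune cells it was 19.6 in the WT and 12.6 in the KO library, a log2 difference of -0.64 (-1.25 to -0.09). In epithelial cells it was 11.2 and 4.65, a difference of -1.26 (-1.95 to -0.50), or -0.88 (-1.72 to 0.10) without the 4 WT cells with immune markers. In mesenchymal cells it was 11.6 and 5.59, a difference of -1.05 (-1.87 to -0.29), and in endothelial cells 8.68 and 3.28, a difference of -1.40 (-4.47 to 0.48). The endothelial interval includes 0, and with cycling called at 2 or more genes the endothelial difference was 0.13 (-1.34 to 1.29). Without the upper limit on detected genes the mesenchymal difference was -0.36 (-0.90 to 0.18). After thinning every barcode to 1000 UMIs, with the calls remade at that depth, the immune difference was 0.18 (-5.18 to 2.80).

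The 5 genes of the cycling call chose these cells, so their levels are given as a description and are no contrast for Pclaf. Over all cycling cells the difference, KO minus WT, was -0.01 for Mki67 (a proliferation antigen), -0.22 for Top2a (topoisomerase II), -0.50 for Birc5 (survivin), 0.41 for Cenpf (a kinetochore protein) and -0.07 for Ube2c (a ubiquitin-conjugating enzyme of mitotic exit). Pcna, the gene of the partner of PCLAF, stood at -0.53 (-0.73 to -0.34). In epithelial cells the 5 genes lay between -0.09 and 0.37. In mesenchymal cells Birc5, at -0.84 (-1.67 to -0.07), and Ube2c, at -0.82 (-1.51 to -0.18), stood as low as Pclaf. All 43 S genes and all 49 G2/M genes were above Pclaf in the pooled comparison of all cycling cells. Of 14077 genes measured there, 20% were at least 2-fold lower in the KO library, and Pclaf stood at percentile 10.8. The genotype and the lineages present cannot be told apart in these pooled values.

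The genes around Pclaf on chromosome 9 were compared in the same way. Over all cycling cells, where makeup differs, the difference was -0.39 (-0.84 to 0.05) for Trip4, which encloses Pclaf, and 0.33 (0.04 to 0.61) for Zfp609, a zinc finger gene beyond it. On the other side it was -0.42 (-0.72 to -0.13) for the casein kinase gene Csnk1g1 and 0.24 (0.13 to 0.35) for Ppib, a cyclophilin of the endoplasmic reticulum. In epithelial cells Trip4, with 1 WT UMI, stood at 1.42 (-1.14 to 6.75) and Zfp609 at 0.61 (-0.65 to 2.26). Csnk1g1 stood there at 0.25 (-1.02 to 1.91) and Ppib at 0.28 (-0.19 to 0.80), and each of these 4 intervals includes 0. Over all cells Trip4 stood at 30.9 CPM in cycling and 33.7 CPM in non-cycling WT cells, against 461 and 12.6 CPM for Pclaf, so Trip4 was not higher in cycling cells.

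Many KO cycling cells held no Pclaf UMI. No Pclaf UMI was counted in 57.7% of the 220 KO cycling cells, against 28.6% of the 706 WT cycling cells, at median depths of 10640 and 7989 UMIs. These shares are pooled over lineages whose makeup differs between the libraries. Among cycling epithelial cells the share was 60% of 155 KO and 56.25% of 16 WT cells. Those 16 WT cells had a median depth of 5165.5 UMIs. Among cycling immune cells it was 45.5% of 11 KO and 18.4% of 277 WT cells. At least 10 UMIs were counted in 6 KO and 72 WT cycling cells, and the highest cell held 20 and 26. Cells with Xist and no Y-linked transcript made up 165 of the KO cycling cells, with 127 CPM (112 to 144) of Pclaf and 5.45 Pclaf UMIs per 100 S list UMIs. The 16 KO cycling cells with Y-linked transcripts and no Xist held 7 Pclaf UMIs, or 37.2 CPM (14.96 to 76.7) and 2.75 per 100 S list UMIs. In the WT library these groups held 469 and 480 CPM. The part of these transcripts in the Pclaf counts was not tested.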

How the data were processed

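The authors made droplet 3′ libraries from sorted lung cells, 1 per genotype, and deposited UMI counts per gene and barcode. Their notes name Cell Ranger 3.1.0, STAR and GRCm38 (mm10), while the matrix headers name Cell Ranger 5.0.0. The counts were used as deposited. Barcodes with more than 200 and fewer than 5000 genes and under 20% mitochondrial UMIs were kept (the methods word the limits as RNAs detected, an alternative tried). Doublets were kept; Scrublet in scanpy 1.11.5 called 7.76% of WT and 2.70% of KO cells, and results without them are an alternative. Levels are summed UMIs per 1000000 with exact Poisson intervals, shares have exact Clopper-Pearson intervals, and ratios have exact conditional intervals, computed with SciPy 1.17.1. The ratio intervals were tried on simulated Poisson counts, the model they assume, so their coverage in these data was not tested. UMIs are taken as independent molecules, although 6 of the 220 KO cycling cells held 73 of their 284 Pclaf UMIs. In the ranking of all genes, a count of 0 in 1 group was set at 0.5, and list medians are also given with it at a floor of 3 counts.

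The gene, the lists and the contrasts were chosen with earlier results of these data known. Genes named are Pclaf, the 5 cycling genes, Pcna, the 10 genes with the highest r over WT cycling cells, the 3 highest and 3 lowest genes of each list by r, 2 annotated genes on each side, and, chosen after their values were seen, Rrm2 and Exo1. No columns of other samples were present (0).

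The planned contrast of S shares at 0.75 or more was replaced by 0.5 or more.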

Additional observations from a re-analysis of the deposited data

How the results depend on the processing

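No paired analysis was possible because each genotype is 1 library. The KO minus WT difference in cycling cells was below 0 in 60 of 62 values over the alternatives (above 0 in immune cells thinned to 1000 UMIs and, at 0.01, in mesenchymal cells without the upper gene limit), the difference per S list UMI in 54 of 56 (above 0 in the same immune cells and, at 0.13, in endothelial cells at 2 or more cycling genes), and the cycling minus non-cycling difference was above 0 in 139 of 139. These counts are no repeated support, since the values reuse the same UMIs. A value counts as below 0 even where its interval includes 0. Of the 62 values, 14 are pooled over all cells, where genotype and makeup cannot be told apart. Values below are log2 differences, and the cause of each change was not tested.

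Where every barcode was thinned, the cycling and lineage calls were remade at the lower depth, so the cells compared differ. With every barcode thinned to 1000 UMIs, KO minus WT was 0.087 (-5.27 to 2.70) in immune cells (per S list UMI 0.18) and was -2.20 over all cells (per S list UMI -1.82). Thinned to 2000 UMIs it was -3.07 in mesenchymal cells (per S list UMI -3.25), -0.0085 in epithelial and -1.48 over all cells. With the limits of 200 and 5000 read as UMIs it was -1.89 in epithelial cells (per S list UMI -2.01). With 1 Sftpc UMI for the epithelial call it was -1.97, and over all cells with 4 or more cycling genes -1.65.

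Cycling minus non-cycling cells, thinned to 1000 UMIs, was 4.42 in WT immune, 3.33 in WT endothelial, 6.46 in WT mesenchymal, 4.09 in KO epithelial, 4.37 in all WT and 4.22 in all KO cells. Thinned to 2000 UMIs it was 4.66 in WT immune, 6.75 in WT mesenchymal, 5.31 in KO mesenchymal and 4.72 in all WT cells. Against non-cycling cells with 0 of the 5 genes it was 7.07 in WT and 7.15 in KO immune, 5.61 in WT endothelial, 5.75 in WT mesenchymal, 5.82 in WT and 6.88 in KO epithelial, 6.32 in all WT and 6.79 in all KO cells. At 2 or more cycling genes it was 5.97 in WT immune, 5.92 in KO epithelial, 5.37 in all WT and 5.88 in all KO cells, and at 4 or more 4.97 in WT immune and 4.78 in all WT cells. With the limits read as UMIs it was 3.95 in WT mesenchymal, 4.45 in KO epithelial, 4.67 in all WT and 4.29 in all KO cells. It was 5.05 in WT immune cells by marker lists and 5.41 in all WT cells with at least 500 genes.

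The WT difference between S shares turned to -0.085 at 2 or more cycling genes and was 0.65 at 4 or more, 0.58 and 0.65 after thinning to 1000 and 2000 UMIs. Over cells under 0.25, a choice made after seeing the data, it was 0.62 in the WT and 1.82 in the KO library. Of the 10 genes most like Pclaf, 5 were shared without thinning and 6 in immune cells alone. For 13 pairs of a result and an alternative no usable value was left.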

Other observations

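Barcodes with 5000 or more genes were left out, 99 in the WT and 303 in the KO library. They held 249 Pclaf UMIs (6.20% of the library's Pclaf) and 208 (28.0%), and 35 and 46 of them passed the cycling call.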
